A study of Mus musculus with 2 samples.

Results

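This account concerns 52 mouse genes that carry a cell from the G1 phase into S phase and copy its DNA: G1 cyclins and their kinases, CDK inhibitors, Rb and the E2F factors, origin licensing factors, the MCM2-7 helicase, the proteins that activate it, the sliding clamp and its loader, the polymerases, and the enzymes that supply nucleotides. The genes were taken as a list of symbols, and all 52 were found among the 22909 genes matched on the arrays. Their expression was read from whole colon RNA of 8-week-old C57BL/6 mice, on 2 Agilent mouse arrays that held 1 genotype each. The control was Villin-Cre, which carries a Cre recombinase under the Villin promoter, active in gut epithelium. The other genotype was Villin-Cre; EP4flox/flox, here EP4 cKO, in which the same Cre removes the floxed EP4 gene (Ptger4, a prostaglandin E2 receptor) from epithelial cells, while the other cells of the colon wall keep it. Both genotypes carry the Cre. The labels state that 3 pools of colon RNA were put together for an array. With 1 array per genotype there is no spread between mice, no test was made, and every difference given is between these arrays. In whole tissue, fewer cells of a type and less RNA per cell cannot be told apart.

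The entry into S phase works as a relay. D-type cyclins with Cdk4 or Cdk6, and then cyclin E with Cdk2, phosphorylate Rb, which releases E2F factors to switch on the genes of replication. In G1 the origin recognition complex, Cdc6 and Cdt1 load the MCM2-7 ring on DNA. Cdc45 and the GINS complex turn it into an active helicase, and polymerase alpha with primase starts each strand, polymerase epsilon and polymerase delta extend the strands, and Pcna, loaded by the RFC complex, holds the polymerases in place. In the colon these genes are used mainly by the dividing cells in the lower part of the crypt, and also by dividing immune cells. Genes used later, in mitosis, are generally under another promoter element, the CHR (cell cycle genes homology region), and serve below as the nearest comparison.

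Promoter sequences show this difference. RefSeq promoters (assembly GRCm38.p6, 250 bases before to 50 after each annotated start) were at hand for 42 of the 52 genes. Each was searched on both strands for the E2F-type letters TTTGGCGC and TTTCCCGC. A match was present in 13 of the 42 genes, that is in 24.1% of their 54 promoters, against 1.56% of all 32851 promoters and 0 of the 26 mitosis genes that had a promoter. The lists nearest in function held it too, in 9 of 34 other replication genes (26.5%) and 3 of 13 other G1/S regulators (23.1%). The shorter forms TTGGCGC and TTCCCGC, which lie inside the longer letters, together with TTCGCGC and TTGCCGC were in 24 of the 42 genes (57.1%), against 10.9% of all 27025 genes with a promoter, 58.8% of the other replication genes, 38.5% of the other G1/S regulators and 3 of the 26 mitosis genes. The replication promoters also held more G and C (median 61.3%) than all promoters (median 52.7%), and matches in these letters depend on base composition. Stretches before the start of genes of S phase entry, licensing, helicase and polymerase are shown, 5′ to 3′ on the strand of the gene, with the E2F-type letters in capitals.
Cdk2 (chr10:128705164-128705211, minus strand): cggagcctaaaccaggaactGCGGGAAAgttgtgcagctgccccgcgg
Cdc6 (chr11:98907993-98908040, plus strand): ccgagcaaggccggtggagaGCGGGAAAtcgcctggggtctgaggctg
Mcm5 (chr8:75109340-75109387, plus strand): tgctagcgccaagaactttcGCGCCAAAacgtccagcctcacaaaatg
Mcm6 (chr1:128359725-128359835, minus strand): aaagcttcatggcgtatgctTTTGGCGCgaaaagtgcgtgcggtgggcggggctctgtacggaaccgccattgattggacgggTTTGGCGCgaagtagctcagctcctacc
Mcm7 (chr5:138172021-138172068, minus strand): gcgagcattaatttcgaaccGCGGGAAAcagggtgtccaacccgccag
Pola1 (chrX:93632266-93632313, minus strand): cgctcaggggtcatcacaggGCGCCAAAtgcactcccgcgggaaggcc

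In other members the letters lay just after the annotated start, where 30 bases are shown because these genes held the largest differences of their groups (Mcm3, E2f2 and Pold1).
Mcm3 (chr1:20820266-20820295, minus strand): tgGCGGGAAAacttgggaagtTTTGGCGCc
E2f2 (chr4:136172294-136172323, plus strand): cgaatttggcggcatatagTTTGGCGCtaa
Pold1 (chr7:44548766-44548795, minus strand): cacggcggcgtatcttgtgGCGGGAAAagc

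The CHR letters TTTGAA, a search added after the values of the genes were seen, gave the reverse order. They were in 7 of the 42 replication genes and in 19 of the 26 mitosis genes, that is in 13.0% and 74.1% of their promoters, against 17.9% of all promoters. The lists nearest in function were not below all genes (20.2%). The letters were in 5 of 13 other G1/S regulators (38.5%) and 7 of 34 other replication genes (20.6%). Matches in TTTGAA depend on base composition too. Stretches of mitosis genes are shown with TTTGAA, or its reverse complement TTCAAA, in capitals.
Mki67 (chr7:135716452-135716515, minus strand): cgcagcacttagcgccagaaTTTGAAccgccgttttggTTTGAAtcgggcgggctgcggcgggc
Kif11 (chr19:37376343-37376381, plus strand): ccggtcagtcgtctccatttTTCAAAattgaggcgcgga
Cdc20 (chr4:118437344-118437381, minus strand): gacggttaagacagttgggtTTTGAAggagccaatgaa
A match describes letters in a window and is not shown to be a bound site.

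**Figure D1:**
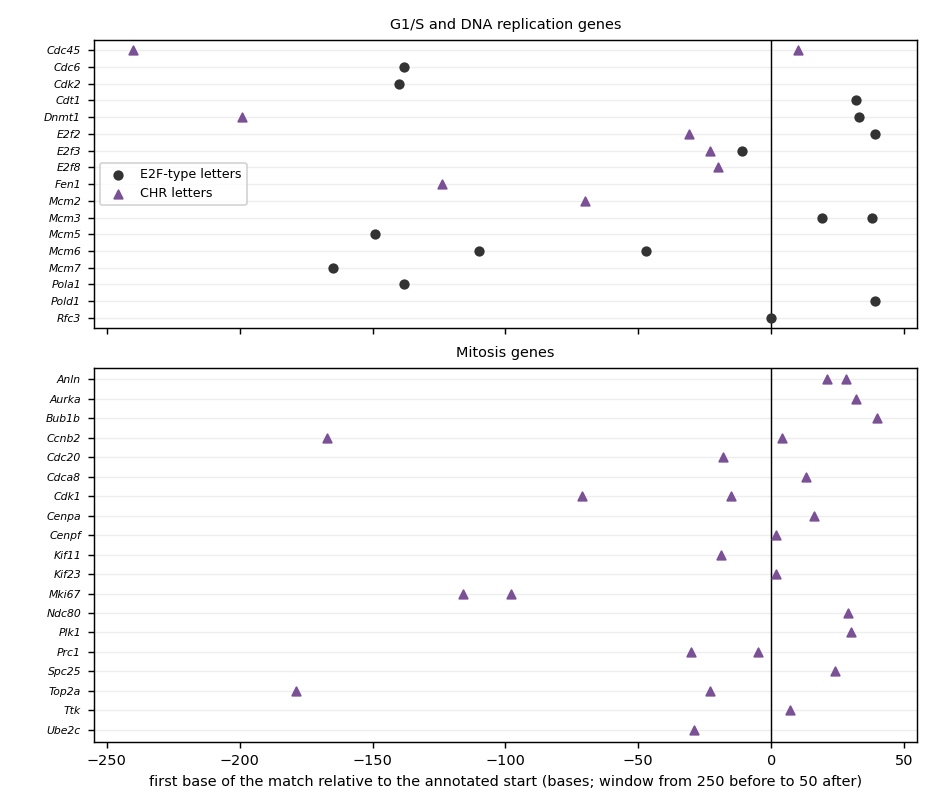
Positions of E2F-type letters (circles) and CHR letters (triangles) in the promoters of the G1/S and DNA replication genes (upper panel) and of the mitosis genes (lower panel), as the distance in bases of the first base of the match from the annotated start; only genes with a match are drawn. The circles are all in the upper panel, on 13 genes, and most of the triangles are in the lower panel, on 19 genes.

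The values compared are the processed signals of the scanner software, scaled on each array so that the mean of the probes, without 2% at each end, was 2500. The ratio is EP4 cKO over Villin-Cre on the log2 scale, from the brightest probe of each gene. The software flags whether a probe is well above background. Both arrays showed this for 49 of the 52 genes. Ccne2 (cyclin E2) and Cdk6 were not well above background on either array. Pola2, the second subunit of polymerase alpha, was well above it on the EP4 cKO array only, without a fold over the Villin-Cre floor, and was counted as 0. The software's own error of the log2 ratio was 0.20 at the median of these 49 genes (0.20 to 0.31) and 0.51 for Pola2, and this error stands in for no biological spread.

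None of the 50 genes with a value differed by more than 2-fold, the limit used by the study: 0 were lower, where 7.87% of all 14679 genes with a value were, and 0 were higher, where 4.86% were. Past 1.5-fold, 4 were lower (E2f2, Rfc2, Pold1 and Pola1) against 18.6% of all genes, and 3 were higher (Cdkn1a, Mcm3 and Ccne1) against 9.84%. The remaining 43 were within 1.5-fold. These counts depend on the scaling: with loess 1 was lower (E2f2) and 6 were higher, with Cdk2, Mcm4 and Gins1 added, against 13.3% and 12.9% of all genes, and with the 75th percentile or the trimmed mean over all spots 1 was lower and 5 were higher, against 13.3% and 13.8% of all genes with the former and 14.04% and 13.1% with the latter. The setting called quantile normalization here also used the median signal and normexp, so it changed more than the scaling. It gave 2 lower (E2f2 and Rfc2) and 3 higher, against 9.75% and 9.86% of all genes. Scaling to E1A control spots gave 0 and 41, against 3.52% and 71.5%. The median log2 ratio of the members was -0.11, beside -0.10 for all genes, a difference of -0.01. With this scaling 30 members were below 0 and 19 above it. With the 75th percentile, the loess, the trimmed mean over all spots or the quantile normalization, the counts were 21 and 28, 22 and 27, 23 and 26, and 25 and 24. Scaling to E1A control spots moved the median of all genes to 0.86, and all 50 members were then above 0. Directions are therefore read here against the median of all genes: 26 of the 50 members were below it, and the quartiles of the members were -0.34 and 0.23, where those of all genes were -0.45 and 0.18. A list of 8 housekeeping genes lay above that median, with 0.40 as its own median and Ywhaz (0.87), Pgk1 (0.73) and Hprt (0.52) as its highest, so the highest members lay no further up than some of these.

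**Figure D2:**
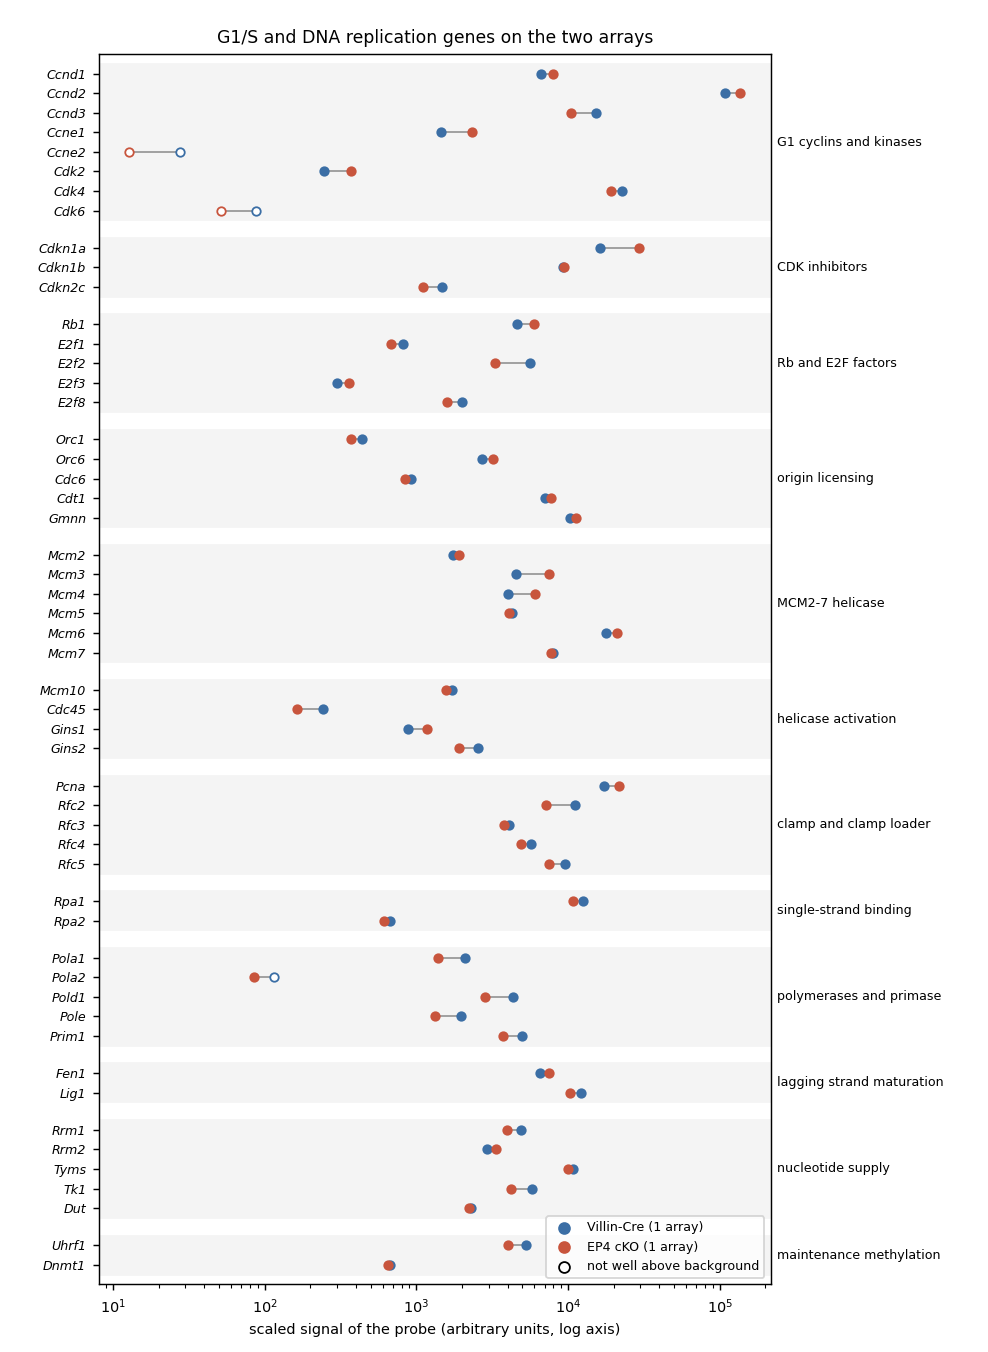
Scaled signal (arbitrary units, log axis) of the brightest probe of each of the 52 genes in Villin-Cre (blue) and EP4 cKO (red), grouped by role; open circles are not well above background. The 2 circles of most genes lie close together, and the widest gaps among the filled ones are at Cdkn1a and E2f2. Signals of different probes are not comparable with each other.

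Among the G1 cyclins and kinases, 4 of the 6 with a value were above the median of all genes, and the median log2 ratio was 0.29. Ccne1 (cyclin E1), the partner of Cdk2 at the G1/S boundary, gave a scaled signal of 1446 in Villin-Cre and 2337 in EP4 cKO, a log2 ratio of 0.69 (in what follows the Villin-Cre signal is given first). Cdk2 itself gave 245.9 and 367.7, a log2 ratio of 0.58. Both partners of this pair thus lay high among all genes, at the 91.9 and 90.1 percentile of the log2 ratios.

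The D-type cyclins, which bring growth signals to Cdk4 and Cdk6, did not move together. Ccnd1 gave 6611 and 7894 (log2 ratio 0.26). Ccnd2 gave 108516 and 136155 (0.33), and its other probes gave 0.62 and 0.48. Ccnd3 gave 15205 and 10524 (-0.53), and its second probe gave -0.54. These signs were the same on every D cyclin probe that was well above background on both arrays. Cdk4 gave 22536 and 19159, a log2 ratio of -0.23, with its other probes at -0.24 and -0.09.

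The CDK inhibitors held the highest value of the whole list. Cdkn1a (p21), which blocks Cdk2 complexes and is a classical p53 target, gave 16232 in Villin-Cre and 29483 in EP4 cKO. That is 1.82-fold, a log2 ratio of 0.86 and the 93.8 percentile of all genes, and it passed 2-fold (1.02) under 75th percentile scaling. A second Cdkn1a probe did not rise well above background in Villin-Cre or EP4 cKO. Cdkn1b (p27) gave 9296 and 9453, with a log2 ratio of 0.02. Cdkn2c (p18), an inhibitor of Cdk4 and Cdk6, gave 1484 and 1099, with a log2 ratio of -0.43. The 3 inhibitors thus spread over the range of the list rather than lying on one side.

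Rb and the E2F factors held the lowest value. E2f2, an activating E2F, gave 5594 and 3301, which is 1.69-fold lower (log2 ratio -0.76, the 12.6 percentile), with a second probe at -0.67. The activating E2f1 gave 818.1 and 679.5 (-0.27), while E2f3, the remaining activator, gave 297.7 and 357.8 (0.27). E2f8, an atypical E2F that represses the same targets, gave 1986 and 1593 (-0.32). Of these factors only E2f2 was past 1.5-fold. Rb1, the pocket protein that restrains the E2Fs, gave 4596 and 5921, a log2 ratio of 0.37, but its second probe gave -0.07, so its difference rests on the choice of probe.

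The origin licensing genes were close to equal on the arrays, with log2 ratios from -0.24 to 0.25. Orc1, the large subunit of the origin recognition complex, gave 438.4 and 370.1 (-0.24), and Orc6 gave 2707 and 3217 (0.25). Cdc6, which joins the complex at the origin, gave 919.7 and 841.3 (-0.13), with its second probe at 0.12. Cdt1, which brings the MCM ring to the origin, gave 7078 and 7755 (0.13). Gmnn (geminin), the inhibitor of Cdt1 after origins have fired, gave 10218 and 11259 (0.14). Cdt1 and its inhibitor thus had nearly the same ratio.

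The MCM2-7 ring had a median log2 ratio of 0.19, which is 0.29 above the median of all genes. Mcm3 gave 4539 and 7473, which is 1.65-fold (log2 ratio 0.72), and its 3 probes gave 0.72, 0.69 and 0.66. Mcm4 gave 4042 and 6023, a log2 ratio of 0.58. Mcm3 and Mcm4 were thus the highest of the ring, with Mcm3 at the 92.3 percentile of all genes. Mcm6 gave 17759 and 21051 (0.25), but its second, dimmer probe gave -0.31. Mcm2 gave 1743 and 1922 (0.14), Mcm7 gave 7939 and 7735 (-0.04), and Mcm5 gave 4248 and 4101 (-0.05). All 6 subunits were above the median of all genes with their brightest probe.

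The genes that activate the helicase did not share a direction. Mcm10 gave 1725 and 1561 (log2 ratio -0.14). Cdc45 gave 240.6 and 163.4 (-0.56), while its second probe gave 154.9 and 202.5 (0.39). The 2 Cdc45 probes therefore differed by 0.95, the widest gap between probes of a member, and both were dim. Gins1 gave 877.5 and 1180.0 (0.43), with a second probe at 0.76, and Gins2 gave 2535 and 1916 (-0.40), with a second probe at -0.16, so these members of one complex were on opposite sides of 0 with each of their probes.

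The polymerase and primase genes were the lowest role group, with a median log2 ratio of -0.57, which is 0.47 below the median of all genes. Pold1, the catalytic subunit of polymerase delta, gave 4327 and 2825, which is 1.53-fold lower (-0.62). Pola1, the catalytic subunit of polymerase alpha, gave 2087 and 1384, which is 1.51-fold lower (-0.59), and its second probe gave -0.60. Pole, the catalytic subunit of polymerase epsilon, gave 1964 and 1323, which is 1.48-fold lower (-0.57). The 3 catalytic subunits thus had nearly equal ratios, between the 17.5 and 19.1 percentile of all genes. Prim1, the catalytic subunit of primase, gave 4996 and 3701 (-0.43). Pola2 gave 115.3, not well above background, and 84.55.

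Accessory subunits, which were singled out after these values were seen, did not share this. Pold2, Pold3 and Pold4 of polymerase delta had log2 ratios of -0.19, -0.09 and -0.15. Pole3 and Pole4 of polymerase epsilon had -0.12 and 0.04. Pole2 gave 350.9 and 597.4, a log2 ratio of 0.77. Prim2, the large subunit of primase, had -0.26. Within polymerase delta and polymerase epsilon the ratios were thus unequal, with the catalytic subunit the lowest.

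The clamp and its loader were split. Pcna, the sliding clamp, gave 17171 and 21664, a log2 ratio of 0.34. The 4 loader subunits of the list were below the median of all genes, while Rfc1, the large subunit and no member of the list, was above it (-0.06): Rfc2 gave 11181 and 7197 (-0.64, 1.55-fold lower), Rfc5 gave 9594 and 7510 (-0.35), Rfc4 gave 5695 and 4912 (-0.21) and Rfc3 gave 4077 and 3773 (-0.11, with a second probe at 0.14). Of these, Rfc3 was level with the median of all genes. The single-strand binding proteins Rpa1 and Rpa2, which coat the opened DNA, gave 12479 and 10773 (-0.21) and 666.2 and 606.8 (-0.13).

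The 2 enzymes that finish the lagging strand had opposite signs. Fen1, the flap nuclease, gave 6516 and 7432 (log2 ratio 0.19). Lig1, the ligase, gave 12197 and 10254 (-0.25), but its second probe gave 0.06. Neither was past 1.5-fold.

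The nucleotide supply genes had a median log2 ratio of -0.12. Tk1 (thymidine kinase) was the lowest, with 5816 and 4222 (-0.46, second probe -0.52). Rrm1, the large subunit of ribonucleotide reductase, gave 4914 and 3975 (-0.31), and Rrm2, its S phase subunit, gave 2913 and 3338 (0.20). The subunits of this enzyme therefore lay on opposite sides of the median of all genes. Tyms (thymidylate synthase) gave 10807 and 9966 (-0.12), and Dut (dUTPase) gave 2281 and 2206 (-0.05).

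Of the genes that copy DNA methylation to the new strand, Uhrf1, which recognises hemimethylated sites, gave 5315 and 4035 (-0.40). Dnmt1, the methyltransferase, gave 674.1 and 646.5 (-0.06). Uhrf1 was past 1 software error and Dnmt1 within it, and neither was past 1.5-fold.

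**Figure D3:**
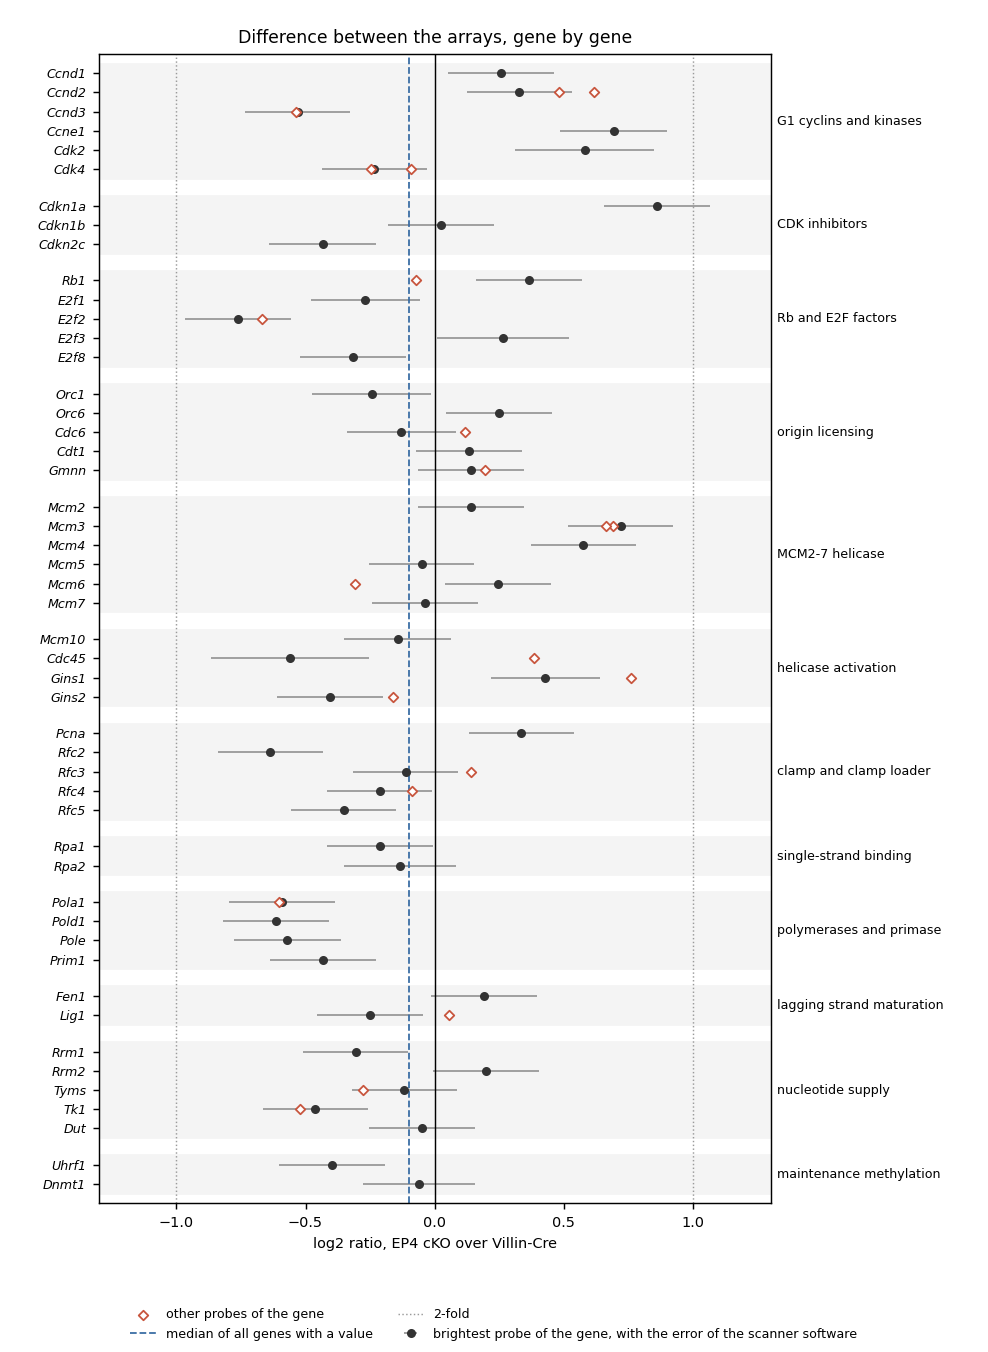
Log2 ratio (EP4 cKO over Villin-Cre) of the 49 genes well above background on both arrays, by role: filled circles with bars are the brightest probe and the scanner software's error, open diamonds are other probes of the same gene, the dashed line is the median of all genes and the dotted lines are 2-fold. All filled circles lie between -0.76 and 0.86, and the 4 polymerase and primase genes lie together between -0.62 and -0.43.

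For 18 members more than 1 probe was well above background on both arrays. Read against 0, the probes had the same sign in 12 of them and mixed signs in 6 (Rb1, Cdc6, Mcm6, Cdc45, Rfc3 and Lig1). Read against the median of all genes (-0.10), both Rb1 probes lay above it. The probes of Cdk4 (-0.23, -0.24 and -0.09) and Rfc4 (-0.21 and -0.09) then lay on both sides. The median gap between the highest and the lowest probe was 0.20. Over 163 probes spotted 10 times, the log2 ratio had a median SD of 0.03 between spots. The gap between probes of a member was thus wider than the spread between spots of 1 probe.

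The list was then set beside other genes of the same processes. The 43 other replication genes had a median log2 ratio of -0.12, nearly that of the members. Only Clspn (claspin, a checkpoint adaptor at the fork) was more than 2-fold lower, at 195.9 and 90.63 (-1.11), against 7.87% of all genes. Its probe was dim, with a software error of 0.39, and with loess it was within 2-fold (-0.89). Of these 43 genes 0 were more than 2-fold higher, against 4.86% of all genes. The 17 other G1/S regulators had a median of -0.42 over 16 with a value, of which 0 passed 2-fold in either direction. Their highest was Tfdp1, the common partner of the E2Fs, at 1061 and 1820 (0.78), and their lowest was Fbxo5, an inhibitor of the anaphase-promoting complex, at 1884 and 957.7 (-0.98). Replication genes outside the list thus centred where the members did.

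The mitosis genes lay elsewhere. With their brightest probes all 30 were below the median of all genes, and their median log2 ratio was -0.80, which is 0.70 below that median, with 6 of 30 more than 2-fold lower, against 7.87% of all genes. That count was 2 with the 75th percentile, loess or the trimmed mean over all spots, against 6.18%, 5.93% and 6.43% of all genes. It was 1 with quantile normalization, against 2.66%. Under those 4 settings the count thus lay near the share of all genes, while all 30 still had log2 ratios below 0. Mki67, the proliferation antigen Ki-67, gave 22683 and 10404, a log2 ratio of -1.12. The paper's Ki67 staining, on replicate mice, showed no significant change. Cenpf, a kinetochore protein, gave 2965 and 1270 (-1.22), and Kif11, the spindle kinesin, gave 634.3 and 276.6 (-1.20). The others past 2-fold were Nusap1 (-1.07), Cenpe (-1.01) and Ndc80 (549.0 and 274.3), which were within 2-fold under each of those 4 settings. No mitosis gene was past 2-fold under all 4. Mki67 remained past it with loess and quantile normalization only, and Kif11 with the 75th percentile and the trimmed mean over all spots only. Cenpf was within it with quantile normalization. The mitosis gene with the smallest difference was Mad2l1 (-0.23), whose second probe gave 0.04. The lowest member, E2f2, was higher than 16 of the 30 mitosis genes, and none of the mitosis genes reached the median of the members with its brightest probe.

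The gap between the medians, members minus mitosis genes, was 0.68 on the log2 scale. It lay between 0.63 (quantile normalization) and 0.71 (mean of all probes) under the alternatives run. With E1A spots 4 of the 30 mitosis genes were below 0, and the gap was 0.67. The gap is a difference between 2 lists on 1 pair of arrays and has no replicate check.

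**Figure D4:**
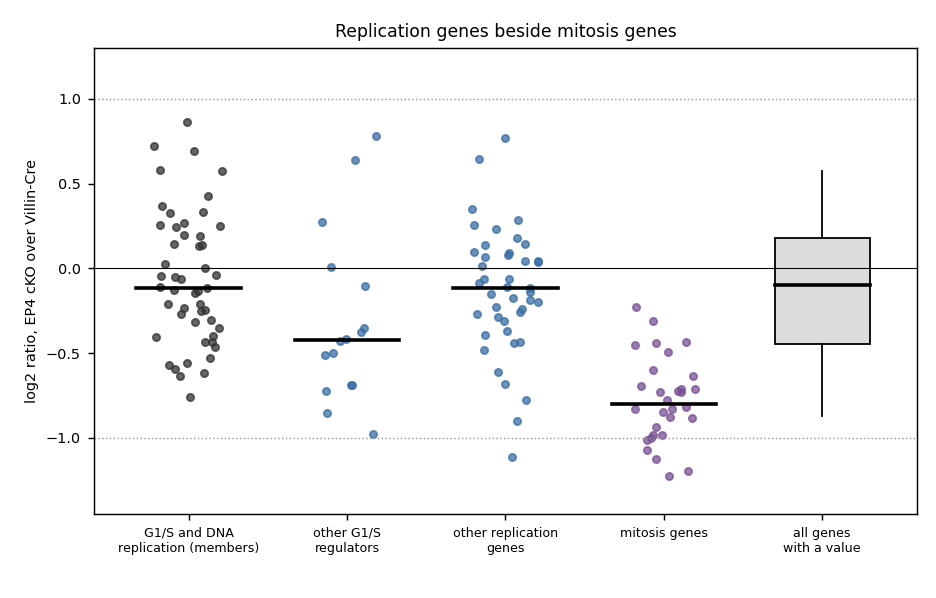
Log2 ratio (EP4 cKO over Villin-Cre) of each gene of the members, the other G1/S regulators, the other replication genes and the mitosis genes (points, black bar at the median), beside all genes with a value (box from the lower to the upper quartile, whiskers from the 10th to the 90th percentile, bar at the median). The members and the other replication genes centre at -0.11 and -0.12, near the -0.10 of all genes. The other G1/S regulators centre at -0.42 and the mitosis genes at -0.80.

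E2F-type letters did not sort the members by their ratio. The 13 members with a match had a median log2 ratio of -0.05 and ran from -0.76 (E2f2) to 0.72 (Mcm3), and the 28 with a promoter but no match and with a value had a median of -0.21, from -0.56 to 0.86. With the shorter letters the medians were -0.13 (24 members) and -0.12 (17 members). In each case the groups overlapped over most of their range.

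The ratio also moved with the signal. Of the 24734 probes that both arrays showed well above background, the dimmest 10% had a median log2 ratio of -0.55 and the brightest 10% one of -0.10. Removing this trend with a loess curve moved the members' median to 0.02, that of all genes to 0.00 and that of the mitosis genes to -0.67. Among the members it moved 5 genes by more than their software error: Cdk2 (0.85), E2f3 (0.53), Orc1 (0.01), Rpa2 (0.09) and Dnmt1 (0.16), all of them dim. The catalytic polymerase subunits remained below 0 but moved towards it, to -0.44 (Pola1), -0.50 (Pold1) and -0.41 (Pole). Pola1 and Pold1 were then within 1.5-fold. Mcm3 was at 0.81 and Cdkn1a at 0.89.

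**Figure D5:**
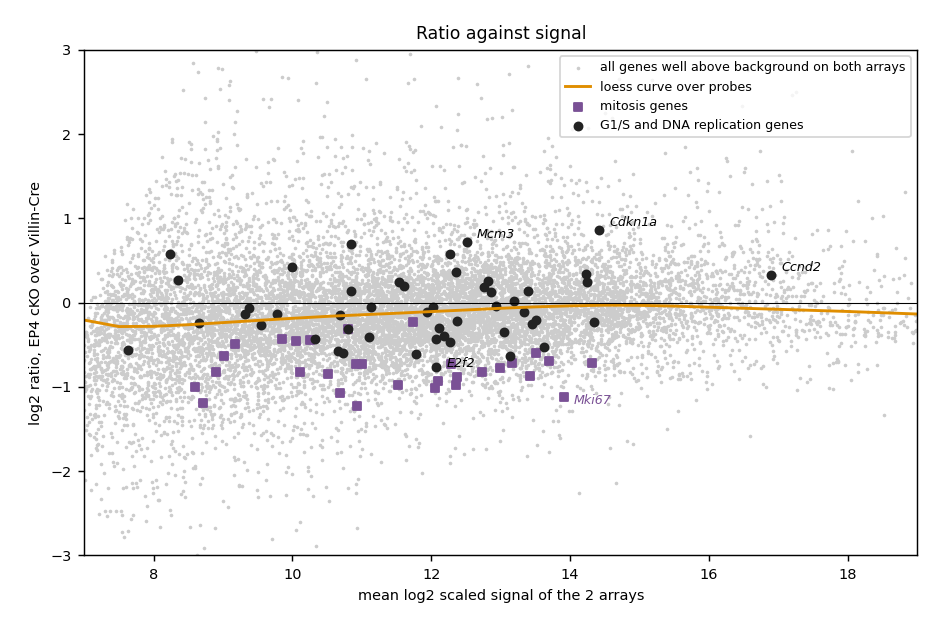
Log2 ratio (EP4 cKO over Villin-Cre) against the mean log2 scaled signal of the arrays, for all genes well above background on both (grey), the mitosis genes (squares), the G1/S and DNA replication genes (circles) and the loess curve over probes (line); genes beyond 3 on the vertical axis are not drawn. At any signal the squares lie below the curve, and the circles lie on both sides of it.

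The cell types in the tissue were checked by marker lists. The 8 epithelial markers (among them Epcam, Vil1 and Cdh1) were all well above background on both arrays, with a median log2 ratio of 0.08 and a range from -0.25 to 0.56. Of the 12 crypt stem and progenitor markers 8 were below the median of all genes, and the list's median was -0.17, from Lgr5, a stem cell marker (1541 and 723.1, -1.09), to Prom1 (612.0 and 1474, 1.27). Of 8 surface colonocyte markers 6 were above that median (list median 0.25), and Krt20 (1.80) and Aqp8 (236302 and 473610) were past 2-fold. The summed signal of the crypt list was 114072 in Villin-Cre and 76051 in EP4 cKO, and that of the surface list 798302 and 1290525. Neither list moved as a whole. Past 1.5-fold, 5 crypt markers were lower, against 18.6% of all genes, and 1 was higher (Prom1), against 9.84%. Besides Lgr5 the lower ones were Ascl2 (-0.93), Smoc2 (-0.85), Ephb3 (-0.82) and Sox9 (-0.67). The other crypt markers were within 1.5-fold. By qRT-PCR the paper found no significant change of Lgr5, which was slightly decreased, or of Sox9. Of the surface markers Guca2a was at -0.75 and Car1 at -0.42, the sums rest on a few bright probes (Ephb3 in the crypt list, at 51943 and 29347, and Krt20 and Aqp8 in the surface list), and 1 of the 12 crypt markers was more than 2-fold lower and 1 more than 2-fold higher. The part of these markers in the members' values was not tested.

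The 5 fibroblast markers with a value (3 of them as bounds) were all more than 2-fold lower, with Dcn, a matrix proteoglycan, at 6006 and 110.2 (-5.77), while the smooth muscle markers Acta2, Tagln and Actg2 were at 0.62, 0.38 and 0.72 and Cnn1 at -2.73. In EP4 cKO only Dcn and Col1a2 of the fibroblast list were well above background. Of the T cell markers Cd3g was at 1.28 and Cd3d at -0.79 (median -0.01 over 6). Of the 6 B and plasma cell markers, Cd79a, Ms4a1 and Mzb1 were not well above background in Villin-Cre or in EP4 cKO. The macrophage list ran from -0.79 (Csf1r) to 0.33 (C1qb), and in the endothelial list Pecam1 was at -0.17 and Vwf at 0.07. Stromal fibroblast RNA therefore differed far more between these arrays than any replication gene, and its part in the members' values was not tested. Ptger4, the deleted gene, gave 6227 and 5661 (-0.14) with one probe and 392.6 and 592.0 (0.59) with the other. Where these probes lie relative to the floxed part is not given in the sources used here, and the other cells of the wall keep the gene, so they do not check the genotype.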

How the data were processed

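Colon RNA of each genotype was hybridised to 1 one-colour (Cy3) Agilent array, 2 arrays in all. The authors deposited the output of Agilent Feature Extraction (12.0.3.1 by the file header, 11.5.1.1 by the submitters' processing notes). The deposited intensity used here, the processed signal, had its background subtracted by that software and was not yet scaled between arrays. The software's flags for outlier spots and for signal above background were taken as they stand in the files.

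Control probes and outlier spots were left out. Of the probes, 45.4% (Villin-Cre) and 51.6% (EP4 cKO) were well above background, and 0 spots were saturated. Each array was scaled to a trimmed mean of 2500 (2% left out at each end), which multiplied the signals by 3.45 (Villin-Cre) and 2.68 (EP4 cKO). Probes well above background on 1 array only gave a bound, against the lowest scaled signal of probes well above background on the other (125.4 on Villin-Cre and 57.8 on EP4 cKO), or 0 where that gave no fold. Of the 14679 genes with a value, 12816 were well above background on both arrays and the others hold such a bound or 0, among them Pola2, Dna2, 3 of the fibroblast markers and single immune and muscle markers. Names came from matching RefSeq accessions without version to a gene table of GRCm38.p6, which named 32989 of 56593 probes (58.3%). The arrays refer to another assembly, so probes have no coordinates here, and only promoters do.

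The members and lists were chosen with earlier results of these data known. Every member was to be named, with up to 5 genes past 2-fold in each direction of each other list, Ptger4 and markers as needed. Other genes were singled out after their values were seen: Ndc80 (the mitosis gene past 2-fold with the smallest change), Rfc1, Tfdp1, housekeeping genes, Fbxo5, Mad2l1, the accessory polymerase subunits and single markers. With 1 array per genotype there was no test and no sample could be left out. The number of arrays limits the precision. Alternatives were 75th percentile scaling, normexp (offset 50) with quantile normalization on the median signal, loess (span 0.3), a trimmed mean over all spots, other filters, the mean of all probes, limits of 1.5-fold and 3-fold and, added after the data were seen, E1A control spots. Python 3.11.15, pandas 2.3.3, statsmodels 0.14.6, R 4.3.3 and limma 3.58.1 were used, and scripts were tested on simulated data.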

Additional observations from a re-analysis of the deposited data

How the results depend on the processing

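No paired analysis was possible because each genotype had 1 array. The main counts were 0 members more than 2-fold lower and 0 higher. 1 was lower without a filter on dim probes (Ccne2, not well above background), where 31.5% of all genes were, and 1 higher with 75th percentile scaling (Cdkn1a), where 6.38% were. With E1A control spot scaling, added after the data were seen, 19 of 50 were higher, where 38.7% of all genes were, so that count says nothing of the members apart from all genes. At 1.5-fold 4 were lower and 3 higher (18.6% and 9.84% of all genes). The median log2 ratio of the members (-0.11) became 0.034 with the 75th percentile, 0.00 with quantile normalization, 0.022 with loess, 0.01 with the trimmed mean over all spots, -0.056 with the mean of all probes and 0.91 with E1A spots, while the difference from the median of all genes stayed between -0.01 and 0.05 except without a filter on dim probes (0.24, where the dim probes lower the median of all genes to -0.37). The mitosis genes more than 2-fold lower were 6, against 7.87% of all genes. They became 2 with the 75th percentile, 2 with loess and 2 with the trimmed mean over all spots (6.18%, 5.93% and 6.43% of all genes). With normexp and quantile normalization on the median signal, where more than 1 choice changed, there was 1 (2.66%). With E1A spots there were 0 (2.26%), at 1.5-fold 24 (18.6%) and at 3-fold 0 (3.64%). The gap between the medians of members and mitosis genes (0.68) was 0.63 with quantile normalization and between 0.67 and 0.71 with the other settings. Of the single members, 5 moved by more than their software error with loess, 3 with quantile normalization (Orc1, Cdc45 and Dnmt1), 3 with the mean of all probes (Rb1, Mcm6 and Cdc45), 49 of 50 with E1A spots, and none with the other settings. Cdc45, Rb1 and Mcm6 have probes of opposite sign. Probes near background, such as those of Ccne2, Cdk6 and Pola2, show no fold at this signal.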
